A study of Mus musculus with 29 samples.

Results

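The SUMO conjugation and deconjugation machinery was followed through 8 genes: the modifiers Sumo2 and Sumo3, the activating-enzyme subunits Sae1 and Uba2, the ligases Pias1 and Pias3, and the proteases Senp2 and Senp3. They were chosen by name, as the rows of the deposited count table whose Ensembl identifiers carry these mouse symbols. All 8 were found among 54532 gene rows, and all 8 were among the 15603 genes with enough counts to test. The 29 libraries are poly-A RNA-seq of livers from obese male mice. The tested allele is K556R, a lysine-to-arginine exchange that makes the hepatocyte transcription factor Prox1 SUMO-deficient, knocked in conditionally in hepatocytes by Cre recombination at 8 weeks of age. All mice then ate a diet with 45% fat and 20% fructose for 18 weeks, and livers were taken in the refed or fasted state between ZT 15 and ZT 17 (hours after lights on). The groups are refed K556R (n = 8), fasted K556R (n = 7), refed wild type (WT, n = 6) and fasted WT (n = 8). The sample titles name the arms Cre and Ctrl, and the labels do not say what alleles or agents the WT arm carries. Each group is spread over a batch 2 (14 libraries) and a batch 1 (15 libraries), and the labels do not say what distinguishes the batches. Whether each library of a group comes from its own mouse is not stated in the labels, so the p-values speak only for the spread from library to library, which may be technical.

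SUMO proteins are small relatives of ubiquitin that are joined to lysines of other proteins. The heterodimer of SAE1 and UBA2 activates SUMO, a conjugating step passes it on, and ligases such as PIAS1 and PIAS3 speed the transfer to particular targets. SENP proteases trim SUMO precursors and cut SUMO off its targets again. Sumo2 and Sumo3 encode nearly identical modifiers that cells can link into chains and attach readily under stress, and in the liver SUMO attachment is known to act on nuclear receptors and other transcription factors of metabolism.

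The sequences below are shown because the largest difference found among the 8 genes, that of Sumo2 between batches, came with an opposite difference in counts at a copy of it. Gm10241, annotated as a processed pseudogene (chr16:20176727-20177012, mm10, minus strand), matches the first 286 of the 288 coding bases of Sumo2 in every base. The first line is that shared stretch. The second is the start of the Sumo3 coding sequence (bases 1 to 283, spliced from chr10:77606097-77618331, mm10, plus strand). Its 53 bases that differ from the aligned base of the Sumo2 stretch are in capitals. Bases of the 286-base Sumo2 stretch that have no counterpart in Sumo3 are not marked, so the lines do not match position by position throughout. The pair of modifier genes are thus the same at 230 of 283 compared bases (81.3%), whereas the Sumo2 stretch cannot be told from the Gm10241 stretch.
Gm10241 and Sumo2: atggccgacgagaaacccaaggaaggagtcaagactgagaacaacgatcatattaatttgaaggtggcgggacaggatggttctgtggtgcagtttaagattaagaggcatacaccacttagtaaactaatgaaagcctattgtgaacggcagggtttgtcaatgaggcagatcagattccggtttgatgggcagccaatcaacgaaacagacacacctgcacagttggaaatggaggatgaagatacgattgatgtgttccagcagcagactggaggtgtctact
Sumo3: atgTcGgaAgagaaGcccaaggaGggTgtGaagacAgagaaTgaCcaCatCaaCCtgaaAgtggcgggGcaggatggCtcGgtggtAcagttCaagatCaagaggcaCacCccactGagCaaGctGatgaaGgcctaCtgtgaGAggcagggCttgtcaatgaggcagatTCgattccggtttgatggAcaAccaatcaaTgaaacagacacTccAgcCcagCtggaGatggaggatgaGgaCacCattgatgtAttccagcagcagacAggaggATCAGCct

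In mm10, Sumo2 (ENSMUSG00000020738) lies on chromosome 11 (115523102 to 115536276, minus strand) and Sumo3 (ENSMUSG00000020265) on chromosome 10 at the position above. Both subunits of the activating enzyme lie on the minus strand of chromosome 7, Sae1 (ENSMUSG00000052833) at 16320234 to 16387806 and Uba2 (ENSMUSG00000052997) at 34140688 to 34169599. Pias1 (ENSMUSG00000032405) lies on chromosome 9 (62878368 to 62987924, minus strand) and Pias3 (ENSMUSG00000028101) on chromosome 3 (96696384 to 96706070, plus strand). Senp2 (ENSMUSG00000022855) lies on chromosome 16 (22009484 to 22049269, plus strand) and Senp3 (ENSMUSG00000005204) on chromosome 11 (69673115 to 69682084, minus strand). All values below count reads over the exons of the whole gene.

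Library totals, in units of 1e6 counts, ran between 14.4 and 23.5 in batch 2 and between 19.1 and 27.3 in batch 1. The libraries carried the defining transcripts of liver: the 5 hepatocyte markers summed to 60611 CPM (the count scaled to the library total, here with TMM factors) or more in every library. Of 4 adipocyte genes, Adipoq, Plin1 and Lep had 10, 28 and 0 counts over all libraries, while Cfd had 3998 counts (0.991 to 28.8 CPM). Prox1 itself did not pass the test between genotypes (log2 fold change -0.02, SE 0.063, K556R over WT as the mean of both feeding states, edgeR adjusted p = 0.907). It was lower in refed than in fasted livers as the mean of both genotypes (-0.20, edgeR adjusted p = 0.0180). The refed over fasted change was -0.31 in K556R livers (adjusted p = 0.0119) and -0.086 in WT livers (adjusted p = 0.634). The difference between these changes, -0.23, was not called (edgeR adjusted p = 0.9999), so no dependence on genotype was detected. Within batches the K556R change was -0.46 (SE 0.12) in batch 2 and -0.19 (SE 0.11) in batch 1. Whole-gene counts cannot tell the K556R from the WT allele. These are bulk livers, in which fewer cells of a type and less RNA per cell cannot be told apart.

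The messages of all 8 genes were present at middle to high levels for a liver transcript. Levels are given as RPKM, which divides CPM by exon length so that genes can be compared. Sumo3 led with a mean of 16.0 RPKM (SD 2.10, n = 29) and stood at percentile 85.1 of the tested genes. Senp3, a nucleolar protease that prefers SUMO2 and SUMO3, followed at 10.9 RPKM (SD 0.974) and Sae1 at 9.78 RPKM (SD 1.46). Sumo2 averaged 8.05 RPKM with an SD of 4.97, the widest of the 8. Below these came Senp2, a protease found at the nuclear pore, at 5.29 RPKM (SD 0.440) and Uba2, the catalytic subunit of the activating enzyme, at 5.005 RPKM (SD 0.679). Pias1 (2.76 RPKM, SD 0.333) and Pias3 (2.73 RPKM, SD 0.415) were lowest, at percentiles 50.8 and 50.6.

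In this order the steps between Sumo3 and Senp3 and between Uba2 and Pias1 were clear, with the higher gene above the lower one in all 29 libraries and no overlap of their ranges. The other neighbours overlapped in RPKM. Senp3 exceeded Sae1 in 22 of 29 libraries, Senp2 exceeded Uba2 in 21, and Pias1 exceeded Pias3 in 17. The place of Sumo2 depended on the batch. It stood below Sae1 in all 14 libraries of batch 2 and above Sae1 in all 15 of batch 1.

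**Figure D1:**
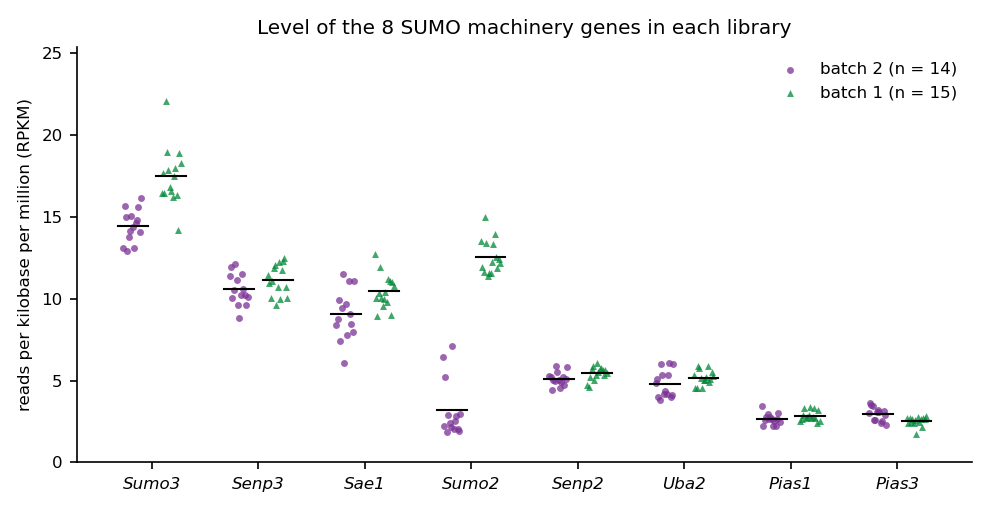
RPKM of the 8 genes in each of 29 libraries, batch 2 as circles (left of each pair) and batch 1 as triangles, with the batch mean as a line. Sumo2 is the gene whose libraries separate by batch, with 3 batch 2 libraries between the lower batch 2 cloud and batch 1.

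Does loss of the SUMO site on Prox1 go with a change in the messages of the SUMO enzymes themselves? None of the 8 genes was called between K556R and WT livers in either feeding state or as the mean of both. In the mean of both feeding states, the log2 fold changes of the 8 genes (K556R over WT) ran from -0.12 for Pias3 to 0.088 for Uba2, with a median of 0.008, against 0.002 over all tested genes. The edgeR quasi-likelihood test with a batch term and Benjamini-Hochberg adjustment called 1.24% of all 15603 genes in that comparison at an adjusted p below 0.05. It called 0.103% in the fasted and 0% in the refed comparison (1319 genes at an unadjusted p below 0.05), and the count of 0 among 8 genes is near these backgrounds. DESeq2 also called 0 of the 8 in each of the 3 comparisons.

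Uba2 came nearest. Its level was 31.4, 35.2 and 36.6 CPM (lowest, median, highest) in refed K556R livers and 29.1, 32.0 and 36.2 CPM in refed WT livers. Fasted K556R livers had 25.1, 27.4 and 31.2 CPM and fasted WT livers 22.9, 26.1 and 30.7 CPM. The genotype ranges overlapped in each feeding state, and the mean difference was 1.06-fold (95% interval 1.00 to 1.13, unadjusted p = 0.0466, edgeR adjusted p = 0.332). Uba2 was the 1 gene of the 8 with an unadjusted p below 0.05 in that comparison, beside 14.7% of all genes, so near that background. In the fasted and in the refed comparison there were 0 of the 8, beside 9.48% and 8.45% of all genes.

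The intervals limit how large a genotype difference could have been missed. As the mean of both feeding states, the 95% interval of the K556R over WT ratio was 0.949 to 1.08 for Sumo3, 0.912 to 1.09 for Sae1, 0.930 to 1.12 for Pias1 and 0.831 to 1.02 for Pias3. It was 0.978 to 1.10 for Senp2 and 0.933 to 1.07 for Senp3. For Sumo2 it was far wider, 0.790 to 1.26. With the counts of its pseudogene copies added (described below), the Sumo2 ratio was 1.02 (0.940 to 1.11, edgeR adjusted p = 0.849).

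No dependence of the genotype difference on feeding or batch was detected. The interaction of genotype with feeding was called for 0 of the 8 genes and 0% of all genes by edgeR (440 genes at an unadjusted p below 0.05, 0 of them among the 8), and DESeq2 called 0 genes. The difference of the genotype effect between batch 2 and batch 1 was called for 0 of the 8 and 0% of all genes (1358 unadjusted, 0 of the 8), and DESeq2 called 1 gene outside the 8. Within the batches, the genotype difference of Pias1 was -0.090 (SE 0.093) in batch 2 and 0.14 (SE 0.088) in batch 1, and that of Uba2 was 0.099 (SE 0.054) in batch 2 and 0.070 (SE 0.052) in batch 1.

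**Figure D2:**
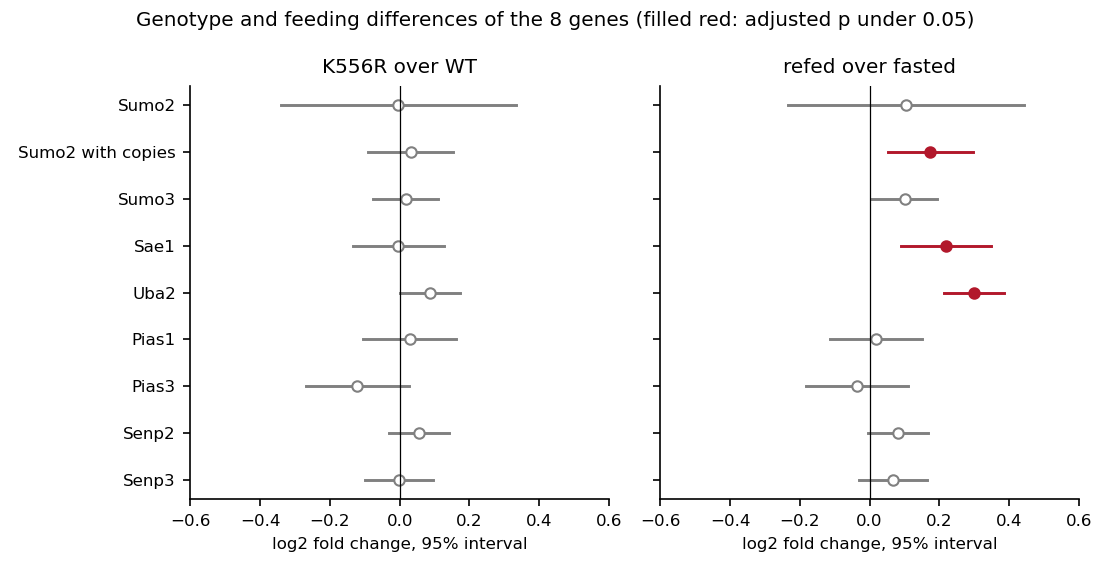
Fitted log2 fold changes with 95% intervals, K556R over WT (mean of both feeding states) on the left and refed over fasted (mean of both genotypes) on the right, for the 8 genes and for Sumo2 with the counts of its 11 pseudogene copies. No interval on the left belongs to a called gene, and on the right Uba2, Sae1 and the summed Sumo2 counts are called.

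How do the modifier genes themselves respond to refeeding and differ between batches? The largest difference among the 8 genes was between batches, at Sumo2. Its level was 3.26 to 12.4 CPM (median 4.31) in the 14 libraries of batch 2 and 19.7 to 26.0 CPM (median 21.3) in the 15 libraries of batch 1, with no overlap. The fitted ratio of batch 2 over batch 1 was 0.255 (95% interval 0.2002 to 0.324, edgeR adjusted p = 9.62e-11). Batch 2 was not uniform either: 11 libraries lay between 3.26 and 5.15 CPM, while fasted WT replicate 3 had 9.05 CPM, refed WT replicate 3 had 11.1 CPM and fasted K556R replicate 1 had 12.4 CPM. Without these 3 libraries, picked because of their Sumo2 level, the log2 ratio was -2.44 in place of -1.97.

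Counts at the Gm10241 copy moved the other way. Gm10241 had 111 to 267 counts in each library of batch 2 (median 162) and 1 to 8 counts in each library of batch 1 (median 3). The 3 batch 2 libraries with more Sumo2 held 111, 138 and 119 Gm10241 counts beside 210, 200 and 230 Sumo2 counts (fasted WT replicate 3, refed WT replicate 3 and fasted K556R replicate 1). The other 11 libraries of batch 2 held 128 to 267 Gm10241 counts beside 54 to 105 Sumo2 counts. In every batch 1 library, in contrast, Sumo2 had at least 409 counts. At Gm10241 the fitted ratio of batch 2 over batch 1 was 54.0, with a log2 value of 5.76 (SE 0.17, edgeR adjusted p = 3.53e-22).

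Adding the 11 annotated pseudogene copies to Sumo2, each at least 95% identical over at least 100 coding bases, brought the batches closer. The sum was 12.0 to 19.4 CPM in batch 2 and 20.1 to 26.6 CPM in batch 1, and the ratio was 0.690 (95% interval 0.634 to 0.751, edgeR adjusted p = 2.41e-08). The choice to add them was made after the Sumo2 values were seen. Processed pseudogenes as a class also took a larger share of all counts in batch 2, at 0.297 to 0.354%, than in batch 1, at 0.0536 to 0.0659%, and in this the 3 libraries with more Sumo2 were not apart (0.297 to 0.335%). The cause of the batch difference in counts at the copies was not tested. Samd8, a protein-coding gene with a 202-base stretch 95.5% identical to Sumo2 coding sequence, was not added.

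**Figure D3:**
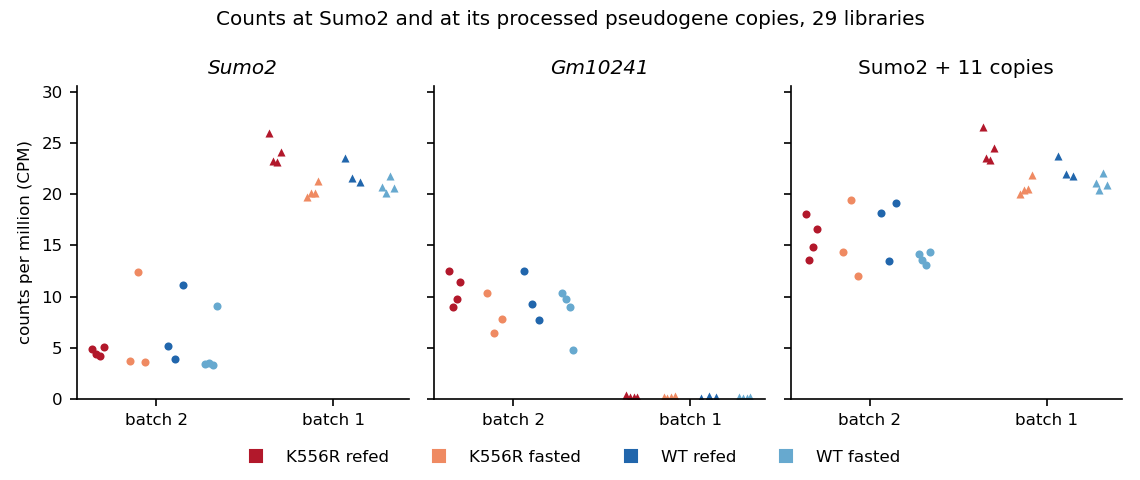
CPM of Sumo2, of its copy Gm10241 and of Sumo2 with its 11 copies in each library, batch 2 to the left of batch 1 and coloured by group. The 14 batch 2 libraries are low in Sumo2 and high in Gm10241, and the gap between batches narrows in the sum.

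Whether Sumo2 differed with feeding depended on the libraries fitted. In batch 1, where Gm10241 held 8 counts or fewer per library, it was 23.2 to 26.0 CPM in refed K556R livers and 19.7 to 21.3 CPM in fasted K556R livers, without overlap. Refed WT livers of that batch had 21.2 to 23.5 CPM and fasted WT livers 20.1 to 21.8 CPM, which overlapped. Fitted on batch 1 alone, the refed over fasted log2 change was 0.18 (edgeR adjusted p = 0.0227) as the mean of both genotypes. In the model of both batches, whose spread for Sumo2 includes that of batch 2, it was -0.013 (SE 0.25) within batch 2 and 0.17 (SE 0.21, unadjusted p = 0.432) within batch 1. On both batches the row as deposited gave 0.10 (SE 0.17, edgeR adjusted p = 0.704), and without the 3 batch 2 libraries picked on their Sumo2 level, of which 2 were fasted, 0.25 (adjusted p = 0.000594). With the copies added it gave 0.17 (SE 0.059, 1.13-fold, edgeR adjusted p = 0.0288). In batch 2 the summed counts overlapped between feeding states, at 13.5 to 18.0 CPM in refed and 12.0 to 19.4 CPM in fasted K556R livers, and at 13.5 to 19.2 CPM in refed and 13.0 to 14.3 CPM in fasted WT livers.

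Close copies of Sumo3 held 1 count in all. Among them, the protein-coding gene Gm49325 (0 counts) shares 346 exonic bases with Sumo3 on the same strand, and how reads there were counted is not known. Sumo3 had a smaller difference between batches than Sumo2, of the same sign. Its level was 47.2 to 59.1 CPM in batch 2 and 52.1 to 80.8 CPM in batch 1, and the ranges overlapped. The ratio of batch 2 over batch 1 was 0.826 (95% interval 0.775 to 0.881, edgeR adjusted p = 2.86e-05). By group, Sumo3 was 50.4, 59.2 and 80.8 CPM (lowest, median, highest) in refed K556R livers and 48.0, 59.4 and 65.3 CPM in fasted K556R livers. Refed WT livers had 48.0, 59.7 and 69.3 CPM and fasted WT livers 47.2, 56.0 and 64.8 CPM, so all groups overlapped. Sumo3 was not called for refeeding (log2 0.10, SE 0.045, edgeR adjusted p = 0.104), though it passed when refed WT replicate 3 of batch 2 was left out (0.12, edgeR adjusted p = 0.0484).

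In all, 5 of the 8 genes were called between batches, 1 higher and 4 lower in batch 2, beside 22.1% of all tested genes (11.5% higher and 10.6% lower). Besides the modifiers these were Sae1 (log2 -0.22, SE 0.063, edgeR adjusted p = 0.0111), Uba2 (-0.13, SE 0.042, adjusted p = 0.0276) and Pias3 (0.22, SE 0.071, adjusted p = 0.0251). The Uba2 and Pias3 calls were lost without the 3 batch 2 libraries that were apart in Sumo2, at adjusted p = 0.108 and 0.0885, and that of Pias3 also without the filter on low counts (0.21, adjusted p = 0.064). The Uba2 call was also lost when any of 4 single libraries was left out: replicate 1 of fasted WT in batch 1, or replicate 2 of fasted K556R and replicates 1 and 3 of fasted WT in batch 2. Marker genes of other kinds also differed between the batches. Of 4 genes of dividing cells, 3 were lower in batch 2, with summed levels of 4.48 to 26.0 CPM in batch 2 and 10.9 to 31.5 CPM in batch 1, and of 8 interferon-response genes, 7 were lower (75.8 to 157 CPM in batch 2 and 88.7 to 320.2 CPM in batch 1). Of 5 hepatocyte markers, Cyp2e1 was higher in batch 2 (0.33, adjusted p = 0.00912) and Alb lower (-0.36, adjusted p = 0.000676), and the adipocyte gene Cfd was higher (0.93, adjusted p = 0.018). Their part in the batch differences of the SUMO genes was not tested.

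What does refeeding do to the messages of the enzyme that activates SUMO? Both of its subunits had more message in refed than in fasted livers, Uba2 by 1.23-fold and Sae1 by 1.16-fold as the mean of both genotypes. Enzyme protein and activity were not measured in these RNA libraries. Uba2 was 31.4 to 36.6 CPM in refed and 25.1 to 31.2 CPM in fasted K556R livers, without overlap. In WT it was 29.1 to 36.2 CPM in refed and 22.9 to 30.7 CPM in fasted livers, which overlapped over both batches. Within a batch they did not: refed WT livers had 29.1 to 36.2 CPM and fasted WT livers 22.9 to 24.9 CPM in batch 2, and refed 31.9 to 33.2 CPM and fasted 27.4 to 30.7 CPM in batch 1.

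The Uba2 log2 change (refed over fasted) was 0.31 (SE 0.059, edgeR adjusted p = 0.000404) in K556R livers and 0.29 (SE 0.061, adjusted p = 0.00167) in WT livers. As the mean of both it was 0.30 (SE 0.042, adjusted p = 3.33e-06), with a 95% interval of the ratio from 1.16 to 1.31. Leaving out each library in turn kept this between 0.28 and 0.32 and called in all 29 fits. The K556R and WT changes differed by 0.015 (SE 0.084, edgeR adjusted p = 1.000 for the interaction).

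Within batches the Uba2 change was 0.42 (SE 0.054) in batch 2 and 0.19 (SE 0.052) in batch 1. The difference between batches of 0.24 (SE 0.075) had an unadjusted p of 0.0042 and did not pass the adjustment (edgeR adjusted p = 0.0872). That comparison called 0 of the 8 genes and 2.74% of all genes, and DESeq2 called 0 of the 8 as well. An unadjusted p below 0.05 was reached by 3 of the 8 and by 18.6% of all genes. Fitted on batch 1 alone, the separate changes of 0.21 in K556R livers and 0.18 in WT livers missed the threshold (edgeR adjusted p = 0.0711 and 0.203), while their mean of 0.20 passed (adjusted p = 0.0143).

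Sae1, the partner subunit, was 23.6, 27.8 and 31.1 CPM (lowest, median, highest) in refed and 15.8, 25.1 and 27.04 CPM in fasted K556R livers. In WT it was 21.8, 28.4 and 33.1 CPM in refed and 19.3, 23.3 and 28.7 CPM in fasted livers. The ranges overlapped in both genotypes. The log2 change was 0.22 (SE 0.063, edgeR adjusted p = 0.0102) as the mean of both genotypes. It was 0.24 (SE 0.088, adjusted p = 0.0634) in K556R livers and 0.20 (SE 0.091, adjusted p = 0.185) in WT livers, so neither genotype alone passed. In K556R livers the adjusted p lay between 0.0282 and 0.153 when each library was left out in turn. As the mean of both genotypes, the Sae1 change was 0.27 (SE 0.092) within batch 2 and 0.18 (SE 0.087) within batch 1. Neither batch fitted alone called this mean (0.26, edgeR adjusted p = 0.111 for batch 2, and 0.19, adjusted p = 0.0502 for batch 1).

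**Figure D4:**
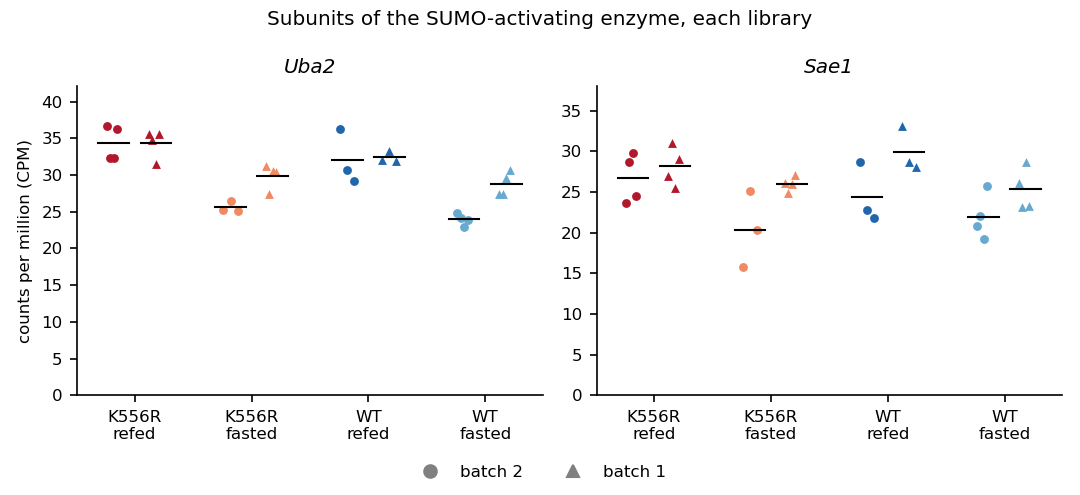
CPM of Uba2 and Sae1 in each library by group, batch 2 as circles and batch 1 as triangles, with the mean of each batch as a line. Within each genotype and batch every refed library is above every fasted one for Uba2, and the feeding states overlap for Sae1 (23.6 to 31.1 CPM refed and 15.8 to 27.04 CPM fasted in K556R).

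These 2 calls of 8 genes stand beside 25.6% of all tested genes called between refed and fasted livers as the mean of both genotypes (12.9% higher and 12.8% lower), a share near that background. Within a genotype, Uba2 was the 1 gene called of the 8, beside 15.4% of all genes in K556R livers (6.97% higher and 8.39% lower) and 10.7% in WT livers (5.25% higher and 5.43% lower). The log2 change was positive for 6 of the 8 genes in K556R livers (Sumo2 -0.056 and Pias3 -0.081 were negative), for 8 in WT livers (the smallest Pias1 0.0074 and Pias3 0.0078) and for 7 as the mean of both genotypes (median 0.091, against 0.006 over all tested genes). Of the cell markers, Lrat of stellate cells was higher in refed livers (0.36, SE 0.12, adjusted p = 0.0319) and Cyp2e1 of hepatocytes was lower (-0.37, SE 0.093, adjusted p = 0.00319). None of the other markers tested passed, and the summed hepatocyte markers were 65575 to 107964 CPM in refed and 60611 to 109525 CPM in fasted livers.

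Neither ligase gene was called between refed and fasted livers. Both encode SUMO ligases of the PIAS family, which act on nuclear proteins such as transcription factors. Pias1 was 15.4, 18.8 and 22.8 CPM (lowest, median, highest) in refed and 15.2, 19.0 and 22.9 CPM in fasted K556R livers, and 15.0, 17.4 and 23.6 CPM in refed and 16.5, 18.4 and 20.6 CPM in fasted WT livers. Its ranges overlapped throughout, and the refed over fasted ratio was 1.01 (95% interval 0.924 to 1.11). Pias3 was 9.48, 9.96 and 10.5 CPM in refed and 6.73, 10.8 and 12.6 CPM in fasted K556R livers, and 9.02, 10.8 and 14.2 CPM in refed and 8.41, 10.96 and 13.8 CPM in fasted WT livers, with overlap in both genotypes. The refed over fasted ratio of Pias3 was 0.975 (95% interval 0.881 to 1.08).

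The feeding difference of Pias3 had opposite signs in the 2 batches. The log2 change was -0.21 (SE 0.096) in batch 2 and 0.13 (SE 0.092) in batch 1. In batch 2 all 4 refed K556R libraries (9.48 to 10.1 CPM) were below the 3 fasted ones (12.0 to 12.6 CPM). In batch 1 the refed K556R libraries had 9.60 to 10.5 CPM and the fasted ones 6.73 to 10.8 CPM. The WT libraries overlapped in both batches. They had 9.02 to 14.2 CPM refed and 11.2 to 13.8 CPM fasted in batch 2. In batch 1 they had 10.5 to 11.1 CPM refed and 8.41 to 10.7 CPM fasted. The difference between batches was -0.34 (SE 0.13, unadjusted p = 0.0165) and did not pass the adjustment over all genes (edgeR adjusted p = 0.165).

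Neither protease gene was called in any comparison of genotype, feeding or batch. Senp2 was 34.0, 39.4 and 40.8 CPM in refed and 31.3, 36.7 and 42.1 CPM in fasted K556R livers, and 32.8, 37.1 and 40.1 CPM in refed and 30.6, 34.9 and 38.9 CPM in fasted WT livers. With an SD of 8.32% of its mean over the 29 libraries it varied least of the 8 genes. Senp3 was 36.2, 41.1 and 44.0 CPM in refed and 32.1, 37.1 and 44.4 CPM in fasted K556R livers, and 36.5, 40.2 and 43.3 CPM in refed and 35.0, 37.7 and 45.2 CPM in fasted WT livers. The feeding states overlapped in both genotypes for both genes. The Senp3 refed over fasted change was 0.19 (SE 0.065) in batch 2 and -0.045 (SE 0.062) in batch 1. The difference of 0.24 (SE 0.089, unadjusted p = 0.0132) did not pass the adjustment (edgeR adjusted p = 0.1495), and batch 2 fitted alone called Senp3 (0.18, adjusted p = 0.0466). Per length, Senp3 exceeded Senp2 by 2.07-fold (SD 0.233, range 1.74 to 2.43, n = 29), in every group and both batches.

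**Figure D5:**
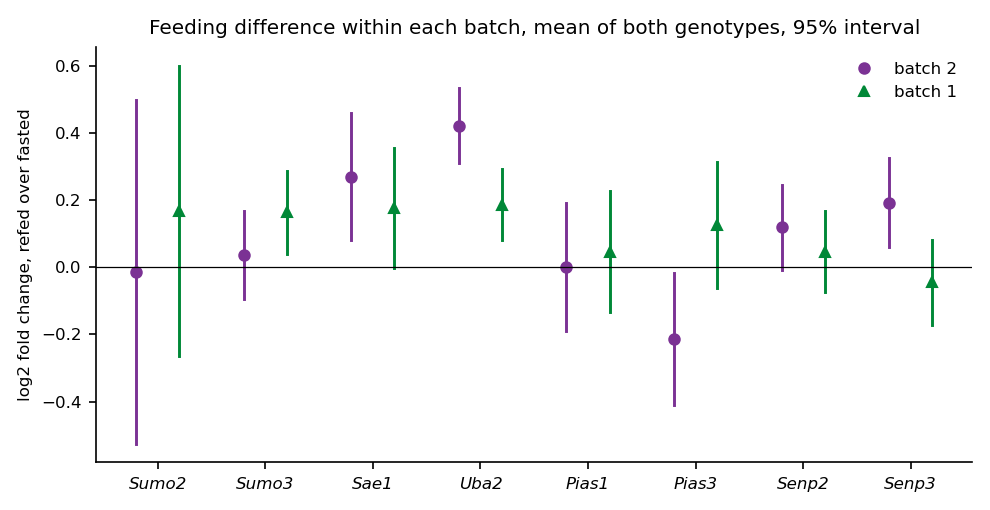
Refed over fasted log2 fold changes of the 8 genes as the mean of both genotypes within batch 2 (circles) and within batch 1 (triangles), with 95% intervals. The points of Uba2 (0.42 and 0.19) and Sae1 (0.27 and 0.18) are above 0 in both batches. So are those of Sumo3 (0.036 and 0.16), Senp2 (0.12 and 0.046) and Pias1 (0.00037 and 0.046). The points of Pias3, Senp3 and Sumo2 are on opposite sides of 0.

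The other genes of the pathway were read from a list of 24, all of them tested. Between genotypes edgeR called 0 of the 24 in the fasted, refed and mean comparisons. In the mean comparison 5 of the 24 had an unadjusted p below 0.05, beside 14.7% of all genes. The smallest were Uspl1, a SUMO protease of Cajal bodies (0.17, SE 0.051, edgeR adjusted p = 0.0967), Desi2 (0.17, SE 0.056, adjusted p = 0.127), the ligase gene Pias4 (-0.16, SE 0.059, adjusted p = 0.172) and the protease gene Senp5 (0.13, SE 0.046, adjusted p = 0.183). The median of the 24 was 0.036, against 0.002 over all genes.

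Between refed and fasted livers 5 of these 24 were called as the mean of both genotypes, 3 higher and 2 lower, beside 25.6% of all genes, so their share was not above that background, with a median of 0.001 against 0.006 over all genes. Desi2, of a family of deSUMOylating isopeptidases, was higher (0.31, SE 0.056, edgeR adjusted p = 7.53e-05), as were Senp7, a protease that trims SUMO chains (0.19, SE 0.063, adjusted p = 0.0256), and Rangap1, the classical SUMO target at the nuclear pore (0.17, SE 0.058, adjusted p = 0.0331). Rnf4, a ubiquitin ligase that recognises SUMO chains, was lower (-0.25, SE 0.042, adjusted p = 3.54e-05), and so was Topors, a ligase for both SUMO and ubiquitin (-0.21, SE 0.055, adjusted p = 0.00451). Between batches 4 of the 24 were higher and 4 lower in batch 2, beside 11.5% and 10.6% of all genes.

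Of 22 conjugation genes of other ubiquitin-like proteins, 6 were higher and 1 lower in refed livers as the mean of both genotypes. Of all genes 12.9% were higher and 12.8% lower. The median of the 22 was 0.093, against 0.006 over all genes. The lower one was the polyubiquitin gene Ubb (-0.57, SE 0.038, edgeR adjusted p = 3.21e-12). Among the higher ones were the activating-enzyme genes Uba6 (0.31, SE 0.080) and Uba3 (0.15, SE 0.050) and the NEDD8-conjugating enzyme genes Ube2m (0.20, SE 0.050) and Ube2f (0.13, SE 0.049), at edgeR adjusted p between 0.00304 and 0.0477. Between genotypes, as the mean of both feeding states, 2 of the 22 were called, beside 1.24% of all genes. Both belong to the ISG15 system. The protease gene Usp18 (1.16, SE 0.17, adjusted p = 0.000702) and Isg15 (0.86, SE 0.15, adjusted p = 0.00227) were higher in K556R livers as the mean of both feeding states. All 8 interferon-response markers, a list that itself holds Usp18, were also higher in K556R livers and summed to 91.3 to 320.2 CPM in K556R and 75.8 to 116 CPM in WT livers. The genotype effect of all 8 markers was smaller in batch 2 than in batch 1 (median difference -0.87, 7 of 8 at an unadjusted p below 0.05, 0 called by edgeR, lowest adjusted p = 0.343). The differences of Usp18 (-0.91, SE 0.29) and Isg15 (-0.71, SE 0.28) were of the same sign and not called (adjusted p = 0.526 and 0.5297), and batch 2 fitted alone called 0 genes of all between genotypes in that mean.

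Among the 8 genes no close pair was seen in the spread within groups. After the mean of each group within each batch was taken out of log2 CPM, Pearson's r between pairs of them over the 29 libraries ran from -0.37 (Pias3 and Senp2) to 0.42 (Sumo2 and Sae1), and that of Uba2 with Sae1 was 0.25. All libraries share 1 table and its scaling, and these r are a description. The r that follow are the 3 highest of 13306 for each gene, picked for their size and not tested against unrelated genes. Among 13306 other tested genes, those most like Uba2 were Nkiras1 (r = 0.85), Cars (0.81) and Khk (0.79). Most like Sae1 were Eif2ak3 (0.81), Dhx32 (0.77) and Epdr1 (0.76), and most like Sumo3 were Dynlrb1 (0.83), Mtch2 (0.81) and Tmx1 (0.80). Sumo2 was nearest to Riok1 (0.77), Kdf1 (0.75) and Particl (0.73), with the 3 apart libraries of batch 2 included. For the ligases the nearest were Fbxo11 (0.74), Kdm5a (0.73) and Nup43 (0.73) for Pias1, and Whrn (0.74), Celsr2 (0.71) and Chrd (0.70) for Pias3. For the proteases they were Cpsf7 (0.73), Rpl36al (0.69) and Strn3 (0.68) for Senp2, and Pitpnm1 (0.77), Traf7 (0.76) and Nosip (0.76) for Senp3.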

How the data were processed

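The authors deposited raw read counts by gene for the 29 livers. The submitters' processing notes list the build mm10 and the tools HTSeq, STAR, STAR-Fusion, TopHat, edgeR and DESeq2. Per the labels' protocols the libraries were made from poly-A RNA, directional or not. The annotation release and strand setting of the authors' counts are not given in the sources used here, so reads of genes that overlap or have near-identical copies can be split in a way that is not known.

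Identifiers were matched to GENCODE M21 (GRCm38). Of 54532, 37 were unmatched and held 0.000917% of counts. Genes were kept by filterByExpr (minimum count 10, minimum total 15), which left 15603 with 99.9% of counts. The edgeR quasi-likelihood model with TMM scaling had 1 coefficient per group and a batch term (common biological coefficient of variation 0.191), and p-values were adjusted by Benjamini-Hochberg over all tested genes. Effects in each batch came from a model with 1 coefficient per group within each batch. A gene was called at an adjusted p below 0.05. Standard errors follow from the quasi-likelihood F statistic. Log2 CPM used a prior count of 2, and RPKM used the summed exon length. Close copies were found with blastn (at least 95% identity over at least 100 coding bases). The procedure was tested on counts simulated from the fitted model, only for refed against fasted as the mean of both genotypes. The other comparisons were not tested in this way.

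The 8 genes, the lists, the markers and the alternatives were chosen with earlier results of these data known. The text names all 8 genes, and of each other list up to 4 with the smallest p and the called genes up to 6, and the 3 genes most like each of the 8, leaving out symbols of Gm with digits or ending in Rik. Gm10241, Gm49325, Samd8 and cell markers were named beyond this rule, after their values were seen. Some genes the rule would name are not reported here. Alternatives were DESeq2, other size factors, no filter, no batch term, each batch alone, a replicate block and leaving out each library. No 2 libraries of a group were the same within sampling noise (92 pairs, chi-square over its degrees of freedom 13.4 to 208). Versions were R 4.3.3, edgeR 4.0.16, limma 3.58.1, DESeq2 1.42.0, blastn 2.17.0, Python 3.11.15 and matplotlib 3.10.9.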

Additional observations from a re-analysis of the deposited data

Results flagged for a closer look

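Among 72 sets of 4 to 8 libraries (each of the 8 genes in each group, and in each group within a batch of 4), 1 held a library far from the others. In fasted WT livers of batch 2, Sumo2 was 9.05 CPM in replicate 3, against 3.26 to 3.54 CPM in the other 3 libraries. Chance alone would pick out about 1 in 20 such sets. The same library held 210 Sumo2 and 111 Gm10241 counts, while the other 3 held 55 to 70 Sumo2 and 151 to 214 Gm10241 counts. With the 11 copies added it had 14.3 CPM, against 13.0 to 14.2 CPM. The cause was not tested. Groups with 3 libraries in a batch were not checked within that batch. In batch 2 these include fasted K556R, where Sumo2 was 12.4 CPM in replicate 1, against 3.58 and 3.71 CPM. They also include refed WT, where it was 11.1 CPM in replicate 3, against 3.90 and 5.15 CPM.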

How the results depend on the processing

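No setting tried called any of the 8 genes between genotypes or in the interaction. In refed against fasted K556R livers the number called was 1, 2 with DESeq2 and without 2 libraries low in non-hepatocyte markers (refed K556R replicate 4 of batch 1 and refed WT replicate 1 of batch 2), and 3 without the 3 batch 2 libraries apart in Sumo2. It was 1 to 2 when each library was left out, with Sae1 added without refed K556R replicate 1 or 4 of batch 1, or fasted K556R replicate 1, fasted WT replicate 3 or refed WT replicate 2 of batch 2. Batch 1 alone called Sumo2 in place of Uba2. In WT livers batch 1 alone called 0 in place of 1 (each library left out, 1). As the mean of both genotypes, 4 were called without the 3 libraries in place of 2 (each library left out, 2 to 3), and between batches 3 in place of 5 (4 to 5), or 4 without the filter on low counts (Pias3 lost). Sumo2, on which the 3 libraries were picked, is among the 4. With each library left out, calls over all genes were 3684 to 4141 for that mean and 2977 to 3847 between batches. Calls over all genes moved with the setting too, so these counts are not read as a result about the 8 genes. In place of Sae1 and Uba2 as the mean of both genotypes, batch 1 alone called Sumo2 and Uba2, batch 2 alone Uba2 and Senp3, and the added copies Sumo2 beside both. The Sumo2 change in refed K556R livers was -0.06 and turned to 0.26 in batch 1 alone and 0.29 without the 3 libraries, which were picked on Sumo2 itself and of which 2 are fasted. Both sets of left-out libraries and the added copies were chosen after seeing the data.

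The replicate block left all counts of the 8 genes as they were (Uba2 refed over fasted 0.30, adjusted p = 2.77e-05, Sae1 0.22, adjusted p = 0.0281, edgeR). The deviations of libraries that share a number and a batch had r between -0.35 and 0.35 in 40 pairs (median -0.019, 6 over 0.1), so the numbers were not taken to pair the samples. Over all genes, the genotype calls varied: in the fasted state 16, 89 with DESeq2, 33 in batch 1 alone, 0 in batch 2 alone, 45 without the filter, 2 without the batch term, 2 with the replicate block, 51 without the 2 libraries, 8 without the 3 and 2 to 46 with each library left out. As the mean of both states they were 194, 426 with DESeq2, 125 and 0 in batch 1 and 2 alone, 98 without the batch term, 92 with the replicate block and 116 to 309 with each library left out, and in the refed state 0, 44 with DESeq2, 5 and 7 in batch 1 and 2 alone, 10 without the filter, 3 and 1 without the 2 and the 3 libraries and 0 to 20 with each left out. Refeeding calls in K556R were 2397 and 1497 in batch 1 alone, in WT 1667, 846 and 592 in batch 1 and 2 alone, and as the mean of both 4001 and 2652 in batch 1 alone; the feeding effect between batches had 428, 773 with DESeq2, 184 without the 3 libraries and 191 to 781 with each left out. Low counts limit Sumo2 in batch 2 (54 to 230 counts per library) and Pias3 (149 to 320 counts) most. For Sumo2 this is not only depth, as it was also low there when scaled to library totals (3.26 to 12.4 CPM).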
